A study of Homo sapiens with 20 samples.

Results

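The human genes described here encode 10 factors of messenger RNA 3' end formation, and the question was how their own transcripts were spliced after Aurora-A inhibition or splicing factor depletion. They are CPSF1, CPSF2, CPSF3, CPSF4, CPSF6, CPSF7, CSTF3, FIP1L1, PCF11 and WDR33, chosen by gene symbol, and every row of the authors' 7 deposited tables with one of these symbols was taken. The tables held 26803 event rows, of which 105 name no gene and could not be reached by symbol, and the others lay in 7112 genes; 27 rows, covering 22 distinct events, belonged to 9 of the 10 factors. CPSF3, the endonuclease that cuts the transcript, had no event in any table. The 7112 genes were counted by having an event, so they give no share to set beside 9 of 10.

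In HEK293T cells, an established human embryonic kidney line, the kinase Aurora-A was inhibited for 24 hours with MLN8237, with DMSO as control. Other cells were transfected for 48 hours with siRNAs to SRSF1, SRSF2, SRSF7 or SF3B5, each compared with the non-targeting siRNA group siNT1, or to SRSF3 or RBM39, each compared with siNT2. Each of the 10 groups had 2 samples, sequenced as polyA RNA, and the labels do not state whether both came from separate cultures. By their control the groups form 3 sets (set 1 with the inhibitor, set 2 with siNT1, set 3 with siNT2). The deposited values are group averages of the percent spliced in (PSI), the percent of transcripts that include an exon, keep an intron or use a splice site. No SD, n or test can therefore be given for a single PSI, and the reads behind each value are unknown. The tables hold no expression levels, so neither the depletions nor the amounts of these factors were checked.

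Cleavage and polyadenylation end nearly every messenger RNA. A specificity complex of CPSF1, WDR33, CPSF4 and FIP1L1 binds the AAUAAA signal and recruits the poly(A) polymerase, while CPSF2 and CPSF3 form the cleavage module with symplekin. CSTF3 is the scaffold of the cleavage stimulation factor, which binds downstream of the cut. CPSF6 and CPSF7 are the large subunits of cleavage factor Im, which binds upstream and helps to choose among alternative sites, and PCF11 belongs to cleavage factor IIm, which couples cleavage to transcription termination.

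The sequences given first are 2 FIP1L1 exons, 1 exon each of CPSF7, CPSF6, CPSF2 and WDR33, and the PCF11 splice site. They were picked to show exons listed after several depletions, a seldom used CPSF6 exon that was higher, and the only alternative splice site. The FIP1L1 45-base exon was listed only for SRSF1, where it was lower. Capitals mark the listed segment and small letters the 15 neighbouring bases of the spliced mRNA, read 5′ to 3′ from the GENCODE release 29 transcripts (GRCh38). For PCF11 the capitals mark only the first 15 bases of the 393-base extension past the shorter 5' splice site.
FIP1L1 27-base microexon: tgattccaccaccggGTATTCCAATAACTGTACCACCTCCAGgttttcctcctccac
FIP1L1 45-base exon: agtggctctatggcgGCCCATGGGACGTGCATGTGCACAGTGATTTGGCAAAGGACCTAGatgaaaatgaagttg
CPSF7 104-base exon: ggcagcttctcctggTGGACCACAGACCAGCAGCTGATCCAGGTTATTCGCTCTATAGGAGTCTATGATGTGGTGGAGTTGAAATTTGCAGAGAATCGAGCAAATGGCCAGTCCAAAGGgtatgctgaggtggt
CPSF6 111-base exon: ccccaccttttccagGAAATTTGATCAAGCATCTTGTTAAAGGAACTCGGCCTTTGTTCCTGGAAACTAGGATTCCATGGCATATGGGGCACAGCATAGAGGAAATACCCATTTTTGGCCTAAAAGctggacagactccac
CPSF2 153-base exon: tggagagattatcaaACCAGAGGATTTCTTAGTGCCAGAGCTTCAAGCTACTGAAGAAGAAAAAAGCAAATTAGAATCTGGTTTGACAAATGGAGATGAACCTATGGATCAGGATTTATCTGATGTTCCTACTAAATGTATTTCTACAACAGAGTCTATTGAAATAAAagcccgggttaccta
WDR33 93-base exon: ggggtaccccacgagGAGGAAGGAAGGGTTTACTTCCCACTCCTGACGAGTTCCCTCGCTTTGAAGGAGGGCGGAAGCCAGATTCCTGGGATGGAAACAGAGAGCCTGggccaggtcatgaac
PCF11 junction: ttcagtatcaagaagGTAAACATAGATGCA

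Most of the factors were listed in the longest table, that of SF3B5 depletion, with 11832 rows. After SF3B5 depletion 7 of 10 had an event, against 71.0% of the 7112 genes with an event in any table. After RBM39 depletion 4 of 10 had one (36.5% of all listed genes), after SRSF2 2 (27.1%), after SRSF7 2 (19.7%) and after SRSF1 1 (22.4%). None was listed after SRSF3 depletion, where 39.4% of the listed genes were, and none under MLN8237, where 2.73% were. The SRSF3 table was the second longest, with 4245 rows. Shares over 10 genes are coarse, and no test was made of how they differ from the background. The 7112 genes all have an event somewhere, whereas CPSF3 has none; among the other 9 factors, 7 were listed for SF3B5. The smallest differences in the tables lie just over 15 points, but the authors' listing rule is not known. Why an event is missing from a table therefore cannot be told, and its absence does not show that its PSI was unchanged.

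**Figure D1:**
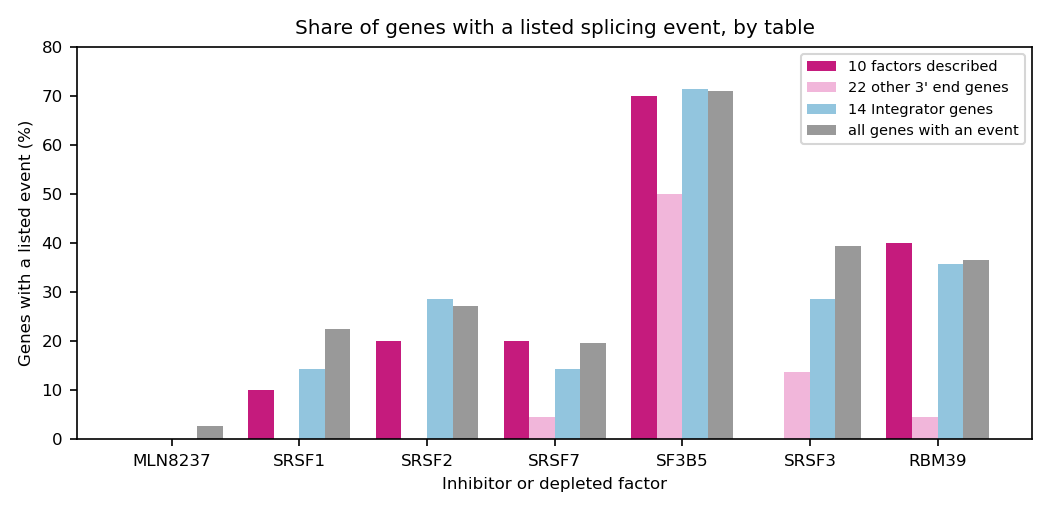
Bars give the percent of genes with at least 1 listed event (y axis) in each of the 7 tables (x axis) for the 10 factors, the 22 other 3' end genes, the 14 Integrator genes and all 7112 genes with an event in any table. The factors reach 70.0% for SF3B5 and 0.0% for SRSF3 and MLN8237.

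FIP1L1, whose protein links the specificity complex to the poly(A) polymerase, had the most varied events. The 27-base microexon (event HsaEX0025815) was at 30.8% in siNT1, at 62.6% after SRSF1 depletion, at 59.3% after SRSF7 depletion and at 14.3% after SF3B5 depletion, in the authors' deposited tables. Its differences from siNT1 were thus 31.9 and 28.5 points upward and 16.5 points downward, and all 3 comparisons share the same siNT1 average. The upward changes exceeded those of 81.1% of exon rows in the SRSF1 table and 80.5% in the SRSF7 table, and the downward change those of 8.17% in the SF3B5 table. The microexon lies at chromosome 4, 53440582 to 53440608 on the plus strand (GRCh38), between the exons numbered 13 and 14 of transcript FIP1L1-202, and adds 9 codons without a shift of the reading frame. No difference between the 3 depletions was tested.

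A 45-base coding exon (HsaEX0025812), exon 2 of FIP1L1-202 at chromosome 4, 53379073 to 53379117, was at 31.6% in siNT1 and 9.18% after SRSF1 depletion in the authors' deposited table, a loss of 22.4 points from a segment of 15 codons. In SRSF1-depleted cells the 2 listed exons of FIP1L1 therefore differed from siNT1 in opposite directions. SRSF1 is an SR protein that binds exonic sequences. In that table, lower inclusion was given for 62.6% of all exon rows.

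After SF3B5 depletion 5 exons of FIP1L1 were listed, each lower. Besides the microexon, the 69-base exon 9 (chromosome 4, 53391430 to 53391498) was at 29.5% and 11.9%, and a 108-base exon at 35.005% and 14.4%, in siNT1 and depleted cells of the authors' deposited table. The 108 bases match exon 7 and exon 11 alike, so its place was not settled. SF3B5 is a subunit of the SF3b complex, which recognises branch points. The neighbouring exons 14 and 15, of 55 bases (chromosome 4, 53442653 to 53442707) and 56 bases (53444048 to 53444103), were nearly always included in siNT1. They were at 98.8% and 81.5% and at 98.5% and 76.9%, in that order of control and depletion. Neither length is a multiple of 3, but together they make 111 bases, or 37 codons. Whether single transcripts lacked one or both was not tested.

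CSTF3 was listed only for SF3B5, with 5 exons, all lower. A 110-base exon (HsaEX0017639), exon 11 of CSTF3-201 at chromosome 11, 33099608 to 33099717 on the minus strand, was at 96.8% in siNT1 and 64.5% after depletion in the authors' deposited table. The remaining CSTF3 exons differed far less. Exons 15, 16 and 17, of 103, 70 and 196 bases, lie next to each other at chromosome 11, 33096306 to 33096408, 33092271 to 33092340 and 33090532 to 33090727. In that order they were at 96.4%, 95.5% and 95.6% in siNT1 and at 81.4%, 78.6% and 80.035% after depletion, so the 3 had nearly equal values in both groups. The authors gave all 3 their class C3, which in VAST-TOOLS marks the most complex exon events. Their lengths sum to 369 bases, or 123 codons, although none is a multiple of 3 alone. Exon 20, of 61 bases (chromosome 11, 33085713 to 33085773), was at 100% and 83.9%.

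**Figure D2:**
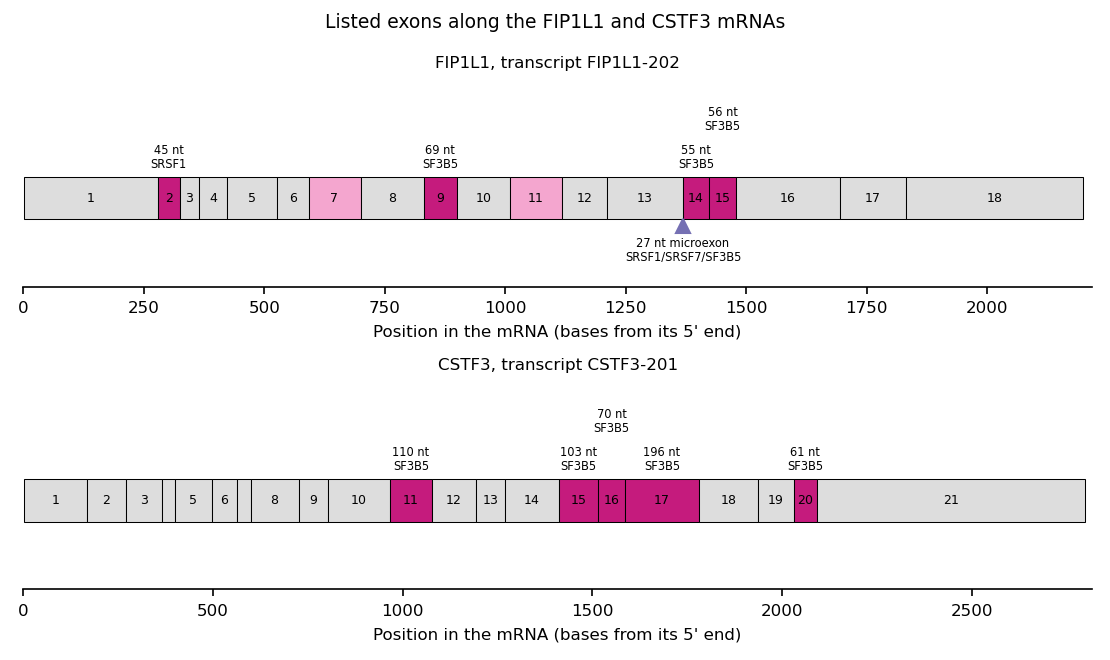
Exons drawn to scale along the mRNAs of FIP1L1-202 (top) and CSTF3-201 (bottom), with the x axis in bases from the 5' end; numbers are exon numbers, dark exons were listed in the tables named above them, pale exons mark both matches of the 108-base FIP1L1 event, and the triangle marks where the 27-base microexon is inserted. Listed exons 14 and 15 of FIP1L1 and 15 to 17 of CSTF3 are neighbours.

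CPSF7 and CPSF6, the large subunits of cleavage factor Im, were both listed after SRSF2 and after SF3B5 depletion. The 104-base exon 4 of CPSF7-202 (HsaEX0017072; chromosome 11, 61420470 to 61420573, minus strand) was at 93.9% in siNT1, at 56.5% after SRSF2 depletion and at 58.2% after SF3B5 depletion. These differences of 37.4 and 35.8 points were read against the same siNT1 average of the authors' deposited tables. The SRSF2 change exceeded 84.9% of exon rows of its table, and was the largest member change outside the SF3B5 table. Exon 4 is present in 15 annotated CPSF7 transcripts, and without it the reading frame of CPSF7-202 meets a stop 2 codons past the new junction, at 93 residues in place of 471.

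Different exons of CPSF6 were listed in the same pair of tables. The 111-base exon 6 of CPSF6-201 (HsaEX0017068; chromosome 12, 69258035 to 69258145, plus strand) was seldom used, at 6.42% in siNT1 and 23.7% after SRSF2 depletion, in the authors' deposited table. It adds 37 codons and separates the annotated proteins of 588 and 551 residues. The 116-base exon 7 of CPSF6-202 (69259428 to 69259543) was at 98.7% in siNT1 and 77.3% after SF3B5 depletion. Only the first of these 2 exons was higher after depletion. With control values so near the ends of the scale, each could be listed in 1 direction only.

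WDR33, which reads the AAUAAA signal together with CPSF4, had the largest change among the factors. The 93-base exon 20 of WDR33-201 (HsaEX6015479; chromosome 2, 127709490 to 127709582, minus strand) was at 99.7% in siNT1 and 49.9% after SF3B5 depletion, and at 99.3% in siNT2 and 83.8% after RBM39 depletion. The losses were 49.8 and 15.5 points in the authors' deposited tables. The first exceeded 89.8% of SF3B5 exon rows and the second 4.70% of RBM39 exon rows. RBM39 is an SR-like protein that works with U2AF at 3' splice sites. The exon has 31 codons, so the frame continues without it.

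CPSF2, of the cleavage module, was listed in the same 2 tables with 1 exon. The 153-base exon 12 of CPSF2-201 (HsaEX0017054; chromosome 14, 92156479 to 92156631, plus strand) was at 98.1% in siNT1 and 63.3% after SF3B5 depletion, and at 98.2% in siNT2 and 81.3% after RBM39 depletion. The losses in the authors' deposited tables were 34.8 and 16.9 points from an exon of 51 codons. For both WDR33 and CPSF2 the averages of siNT1 and siNT2 were within 1 point of each other, while both depletions were lower.

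CPSF4, the zinc finger subunit of the specificity complex, had an event after SRSF7 and a different one after RBM39 depletion. Its 94-base exon 5 (CPSF4-201, chromosome 7, 99450702 to 99450795, plus strand) was at 97.2% in siNT1 and 81.1% after SRSF7 depletion. A 1600-base intron, intron 6 of CPSF4-204 (99452441 to 99454040), was kept in 31.1% of transcripts in siNT2 and 48.4% after RBM39 depletion, in the authors' deposited table. Of all introns listed for RBM39, 89.5% were kept more, so its direction was the common one.

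PCF11 was listed once. An alternative 5' splice site that lengthens exon 7 by 393 bases (chromosome 11, 83167506 to 83167898, plus strand; the longer form is that of transcript PCF11-204) was used at 31.1% in siNT2 and 48.9% after RBM39 depletion, in the authors' deposited table. The extension opens with GT, contains 131 codons and has no stop in the annotated frame. All alternative splice site rows of the Integrator genes and the other 3' end genes were also listed with a higher PSI. Directions over all such rows of the 7 tables are not given here, so nothing is read from this direction.

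CPSF1, the largest subunit of the specificity complex, was listed only for SF3B5, with small changes. A 179-base exon, exon 20 of CPSF1-212 (chromosome 8, 144397954 to 144398132, minus strand), was at 99.5% in siNT1 and 83.3% after depletion, and a 142-base exon at 98.7% and 80.6%. The 142 bases match exons 19 and 30 alike. The 106-base intron 6 (144400818 to 144400923) was kept in 0.88% of transcripts in siNT1 and 16.8% after depletion, in the authors' deposited table. The 2 exons were lower and the intron higher, as were 97.9% of exons and 93.3% of introns in that table. With these control values each could be listed in that direction only, so the directions carry no information.

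**Figure D3:**
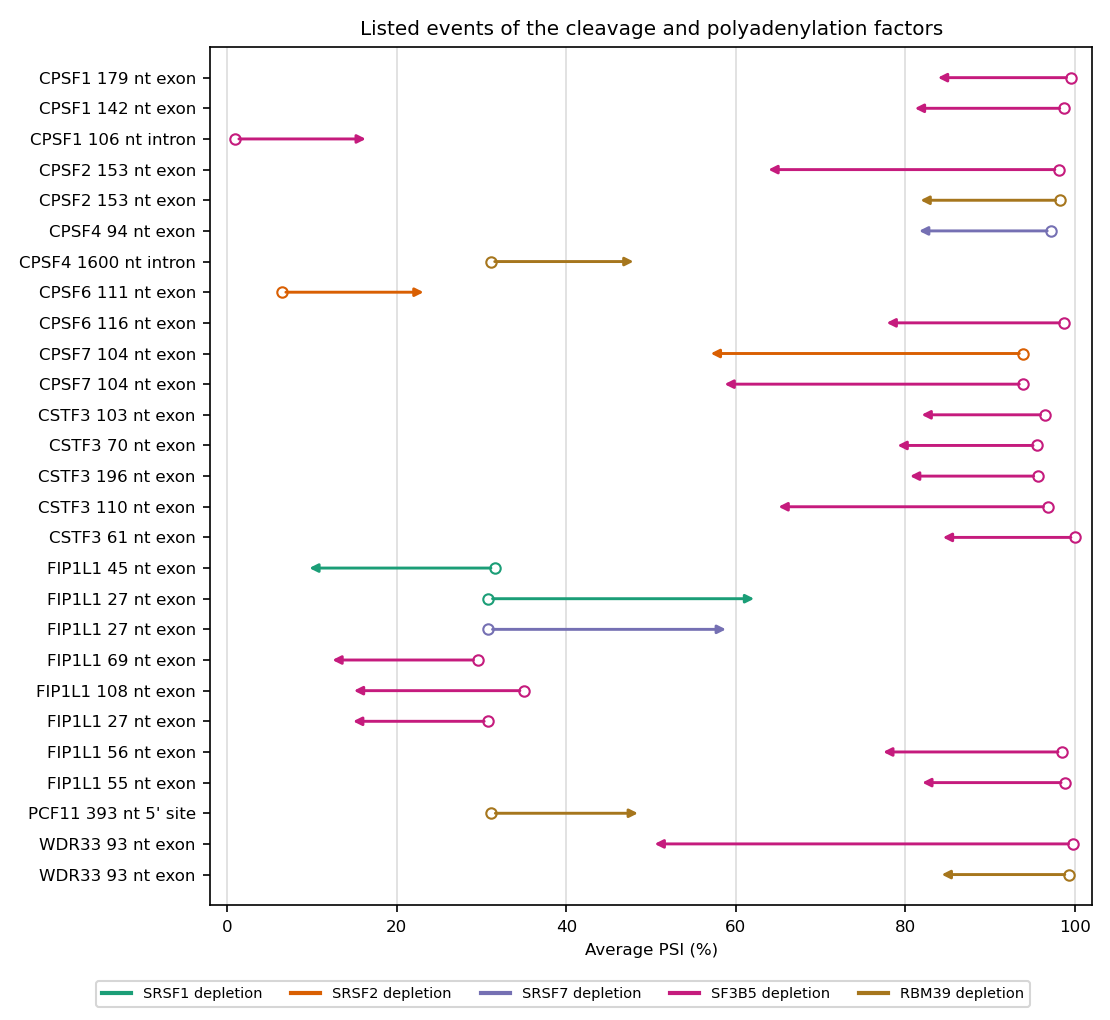
Each row is 1 listed event of a factor, with its length in nucleotides (nt); the open circle is the average PSI of the control group and the arrowhead that of the treated group (x axis, percent), coloured by the depleted factor. Most arrows start above 90% and point left, whereas the FIP1L1 microexon starts at 30.8% and points right after SRSF1 and SRSF7 depletion and left after SF3B5 depletion.

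Over all tables, 21 of the 24 exon rows of these factors were lower after depletion (87.5%, beside 87.4% of all exon rows). The 3 higher rows were the FIP1L1 microexon, with SRSF1 and SRSF7, and CPSF6 exon 6, with SRSF2. In the SF3B5 table all 16 member exons were lower, and in the RBM39 table both were, against 97.9% and 89.3% of all exon rows there. After SRSF1, SRSF2 and SRSF7 depletion, 1 of 2 member exons was lower in each table, where 62.6%, 73.5% and 78.5% of all exons were. An exon with a control PSI over 85 can only be listed as lower, since a rise of over 15 points is out of reach. Of the 16 SF3B5 exons 13 were of that kind (81.5% over the whole table), and so were both RBM39 exons (48.4%). CPSF7 exon 4 with SRSF2 (93.9%) and CPSF4 exon 5 with SRSF7 (97.2%) were too. CPSF6 exon 6, at 6.42% in siNT1, could likewise only be listed as higher. Only the FIP1L1 exons with a control PSI from 29.5% to 35.005% could have been listed either way.

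After SF3B5 and RBM39 depletion, most rows of these factors had a change smaller than the median of their table. The median absolute difference of the 17 SF3B5 rows was 17.6 points, against 25.4 points over that table, and 13 of the 17 lay below the table's median. Many of those 13 were exons of FIP1L1 and CSTF3. By gene, 4 of the 7 listed factors had a row above that median: CPSF2 (34.8 points), CPSF7 (35.8), CSTF3 (32.2) and WDR33 (49.8). For exons with a control PSI over 85 the medians were 18.1 points for the factors and 25.8 points for all. All 4 RBM39 rows, from 15.5 to 17.8 points, lay below that table's median of 21.7 points. With only 2 rows each, the factors' medians were 27.1 points for SRSF1, 27.3 for SRSF2 and 22.3 for SRSF7, beside 21.5, 22.1 and 20.4 points over those tables. The smallest listed change of a factor was 15.025 points, in CSTF3 exon 15. No test compared these sizes, since the rows of a gene are not independent.

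**Figure D4:**
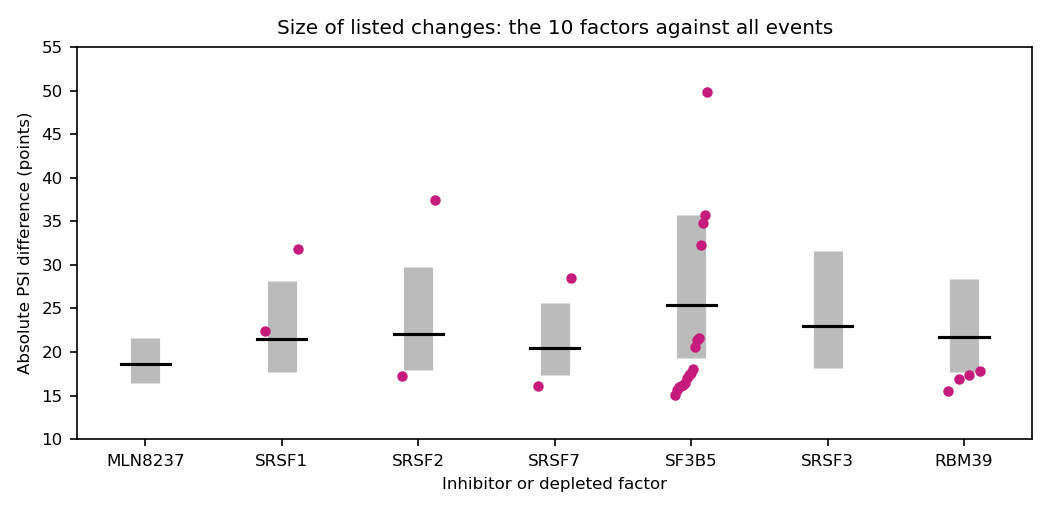
Points are the absolute PSI differences (y axis, points) of the events of the 10 factors in each table (x axis); the grey bar spans the quartiles of all events of the table and the black line is their median. For SF3B5 the median of all events is 25.4 points and the points of the factors lie between 15.025 and 49.8; MLN8237 and SRSF3 have no point.

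Reading frame was read from the length of each listed exon and set beside its control PSI, with no test. All 19 distinct exons lie wholly in coding sequence. The 5 with a control PSI of up to 35.005%, the FIP1L1 exons of 27, 45, 69 and 108 bases and CPSF6 exon 6, were all multiples of 3, but 4 of them belong to 1 gene. Of the 14 with a control PSI from 93.9% to 100%, 2 were multiples of 3, in CPSF2 and WDR33. For 10 of the remaining 12, the annotated transcript without that exon alone meets its first stop more than 50 bases before the last exon junction, from 131 bases in CPSF4 to 2152 for the 179-base exon of CPSF1; the 142-base CPSF1 exon passes in either place, at 863 or 2387 bases. The exceptions were CSTF3 exon 20 and FIP1L1 exon 14. Among the 138 internal exons of the 10 main transcripts that match no listed event, 42.8% were multiples of 3. Transcripts with such an early stop are often degraded, as background; whether these were was not tested, since the tables hold no RNA levels.

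Of 22 other genes of 3' end formation, 11 had an event in any table and 11 had none, among them CSTF1, CSTF2, NUDT21, CLP1 and PABPN1. After SF3B5 depletion 11 of the 22 were listed (beside 71.0% of the 7112 genes), after SRSF3 3 (13.6%, beside 39.4%) and after RBM39 1 (4.55%, beside 36.5%). After SRSF7 depletion 1 was listed (4.55%, beside 19.7%), and after SRSF1 (22.4%), SRSF2 (27.1%) and MLN8237 (2.73%) none was. The 22 include 11 genes with no event anywhere, which the 7112 do not. The 7112 therefore give no share to set beside the 11 with an event in any table. All 30 exon rows of these genes were lower, 22 of them in the SF3B5 table, where 97.9% of all exon rows were. Over all 7 tables the share was 87.4%. Most of these rows had a control PSI over 85 and could only be listed as lower. They were 19 of the 22 exons for SF3B5 (81.5% over that table), all 5 for SRSF3, the 1 for SRSF7 and 1 of 2 for RBM39. The median absolute difference in the SF3B5 table was 25.6 points, beside 25.4 points for all its events. SYMPK, the symplekin scaffold that holds CPSF2 and CPSF3, was picked out after its values were seen. It had 4 rows there, a 91-base exon at 100% and 73.0%, a 188-base exon at 99.5% and 78.7%, and 2 introns kept at 3.50% and 22.2% and at 6.42% and 37.2%, in siNT1 and depleted cells of the authors' deposited table.

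PAPOLA, the poly(A) polymerase that FIP1L1 contacts, had the largest loss of that list. Its 63-base exon was at 81.0% in siNT1 and 14.2% after SF3B5 depletion, and at 82.4% in siNT2 and 36.6% after RBM39 depletion, in the authors' deposited tables. Its 75-base exon was at 88.2% and 27.5%, and at 90.3% and 66.4%, in the same comparisons. PAPOLA was thus listed in the same 2 tables as WDR33 and CPSF2, with lower inclusion in each. In PAPOLG, a second nuclear poly(A) polymerase, a 66-base exon was at 98.5% in siNT1 and 55.5% after SF3B5 depletion.

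SCAF8 and SCAF4, which bind the RNA polymerase II tail and prevent early polyadenylation, were listed after SRSF3 depletion, where none of the 10 factors was. A 177-base exon of SCAF8 was at 98.9% in siNT2 and 33.2% after SRSF3 depletion, and a 45-base exon of SCAF4 at 99.6% in siNT1 and 43.5% after SF3B5 depletion, in the authors' deposited tables. These are losses of 65.8 and 56.2 points, beside 49.8 points for the largest change in the 10 factors. Both events were named because they passed 40 points, so this size reflects how they were picked. For SRSF3 itself, a 171-base exon of SCAF4 was at 99.1% in siNT2 and 63.8% after depletion, a loss of 35.3 points.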

How the data were processed

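The 20 HEK293T samples formed 10 groups, and 7 event tables were deposited by the authors. Per the file headers, each gives average PSI values in percent for control and treated cells, and their difference, a signed score in percentage points. The submitters' processing notes name cutadapt, Bowtie and the hg38 build. The sources used here give no versions, read depth or listing rule; the table names point to VAST-TOOLS.

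Rows were selected by exact gene symbol, with Python 3.11.15 and pandas 2.3.3. No value was refitted. Only group averages were deposited, so no test was made, and with no count per event no interval was computed. Exons and introns were placed on GENCODE release 29 (GRCh38) by gene and length, over internal exons; 17 of 19 exons had 1 match and 2 had 2 matches. The shares of listed genes used the 7112 genes with an event in any table. The factors and the other lists were chosen with earlier results of these data known. From the other lists, genes with a difference of at least 40 points were named, with up to 2 events each. The SYMPK rows, the 171-base SCAF4 exon and the 90-base INTS3 exon were given outside this rule. Alternatives covered a threshold of 25 points, omission of introns, 1 event per gene, control PSI from 15 to 85, synonyms and another denominator.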

Additional observations from a re-analysis of the deposited data

How the results depend on the processing

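Matching RefSeq synonyms changed no count of listed factors, and leaving out introns lowered 1, that of RBM39, from 4 to 3. At changes of at least 25 points, the factors listed numbered 4 for SF3B5, 1 each for SRSF1, SRSF2 and SRSF7 and 0 for RBM39. The share of all genes at that cut was not counted. Of the factors' SF3B5 events 4 of 17 passed it, beside 51.3% of all rows of that table. For SRSF1, SRSF2 and SRSF7 1 of 2 passed in each, beside 34.2%, 37.9% and 27.2% of all rows. For RBM39 0 of 4 passed, beside 35.6%, so every RBM39 event of the factors lies below 25 points. Counting 1 event per gene left 7 events for SF3B5 and 1 for SRSF1. With 1 exon per gene, 0.0% of SRSF1 exons were lower, since the FIP1L1 microexon alone remained, and among exons with a control PSI from 15 to 85 the same held for SRSF7 (0.0%). Over the 20056 RefSeq protein-coding genes, the background was 23.7% for SF3B5, 12.9% for SRSF3, 11.8% for RBM39, 8.88% for SRSF2, 7.35% for SRSF1, 6.45% for SRSF7 and 0.818% for MLN8237; that denominator includes genes that HEK293T cells may not express. Leaving out a replicate was not run, and single averages have no error. No paired analysis was possible because the tables hold only group averages.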

Other observations

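The Integrator complex, which cuts small nuclear RNAs and other short transcripts with INTS11, a relative of CPSF3, had an event in 12 of its 14 genes, 10 of them in the SF3B5 table (71.4%, beside 71.0% of all listed genes). Of 50 exon rows of Integrator genes 49 were lower. The SF3B5 table gave 32 of the 50, and 97.9% of all its exon rows were lower. The RBM39 table gave 7, and 89.3% of all its exon rows were lower. All 32 SF3B5 exons and 6 of the 7 RBM39 exons had a control PSI over 85 and could only be listed as lower. The 1 higher row, a 90-base INTS3 exon at 1.305% in siNT1 and 17.4% after SRSF2 depletion, could only be listed as higher. INTS3 alone had 22 rows, 16 of them for SF3B5, where a 92-base exon was at 99.5% in siNT1 and 33.6% after depletion and an 88-base exon at 99.2% and 38.9%, in the authors' deposited table. In INTS11, whose relative CPSF3 had no event, a 65-base exon was at 90.7% in siNT1, 67.3% after SRSF2 and 40.7% after SF3B5 depletion, and a 35-base exon at 98.6% and 52.6% for SF3B5.

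A 125-base exon of INTS13 was lower after SF3B5 depletion (90.3% in siNT1 and 39.6%) and after RBM39 depletion (89.1% in siNT2 and 45.5%), and so was a 51-base exon of INTS8 (94.8% and 46.3%; 97.6% and 61.8%), per the authors' deposited tables. Both tables also list the WDR33, CPSF2 and PAPOLA exons as lower. Lower inclusion was given for 97.9% of all SF3B5 exon rows and 89.3% of all RBM39 exon rows. The share of all exons listed in both was not counted.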
